A study of Mus musculus with 26 samples.

Results

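Late liver TCRTg101 were compared with undivided TCRTg101 from the same kind of host, a leukemia-bearing mouse. The members were 3 of the 15 RNA-seq libraries of the series, chosen by their labels. They were 2 late liver libraries, from day 18 and day 16, and 1 undivided library from spleen at day 18, made from 6 of the 26 sequencing runs. Late and undivided cells had both been exposed to mice with leukemia, so the comparison asked how cells found in the liver at the end of the time course differed from cells that had kept their dye.

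TCRTg101 are CD8+ T cells with 1 transgenic T cell receptor, cloned from a T cell clone reactive to the C1498 murine leukemia and carried on a Rag2-/- background. The labels gave every sample as C57BL/6, wild type and 6 weeks of age. In the study's methods, cells were labelled with CellTrace Violet (CTV), a dye that is diluted at each division, and transferred into mice that received C1498 cells intravenously a day later. Cells were sorted by flow cytometry from liver or spleen. The undivided library held CTVhi cells, the fraction that had not diluted the dye. No label states that the late liver cells were gated on CTV, so undivided cells may be among them. Controls were 3 spleen libraries of TCRTg101 without leukemia, 2 from naive cells at day 0 and 1 from untreated mice at day 18. Late libraries were from liver and the undivided library was from spleen, so tissue and division cannot be told apart. The sample titles fall into a TG and an XC series, taken as the sequencing batches. The day 18 late library was of the TG series, and the day 16 late library shared the XC series with the undivided one. The labels do not say how many mice gave each library. The undivided group was 1 library, so every p-value below assumes that it varies like the libraries of the other groups.

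Naive T cells rest outside the cell cycle and recirculate through spleen and lymph nodes, guided by receptors such as CCR7 and S1PR1. Antigen starts division and a switch to aerobic glycolysis, and it induces effector molecules. When antigen persists, as it does in a growing tumor, CD8+ T cells keep high levels of co-inhibitory receptors such as PD-1 and of transcription factors such as TOX, a state called exhaustion. Anergy is a related state, in which a T cell that received a receptor signal without costimulation attenuates later signals.

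Values are CPM, counts scaled to a common library size, of the deposited estimated counts, summed per gene and scaled by TMM, and CPM values in a sentence follow the order late liver day 18, late liver day 16, undivided unless stated. Log2 fold changes (± SE) are late liver minus undivided from edgeR's quasi-likelihood test. The fit used 11 libraries (3 control, 1 undivided, 2 early, 3 mid and 2 late) with group and series as terms, and tested 14600 genes. The gene counts of the 3 libraries totalled 63523921, 37124199 and 28792883, so precision was limited less by counting than by how few libraries there were.

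With edgeR, 0 of 14600 genes passed an adjusted p of 0.05 in either direction (0% higher and 0% lower), and the smallest adjusted p was 0.102. At an unadjusted p under 0.05, 1945 genes (13.3%) were higher in late liver cells and 1838 (12.6%) were lower. DESeq2's Wald test on the same genes and model called 1214 genes up (8.32%) and 677 down (4.64%). Without the 2 early liver libraries, edgeR called 1247 genes up (8.98%) and 886 down (6.38%) of 13885. Those 2133 calls and the 1891 calls of DESeq2 shared 1554 genes, 72.9% of the former and 82.2% of the latter, and all 1554 had the same direction in both. The 2 early libraries, both of the XC series, differed by over 1 log2 unit of CPM + 1 in 2220 genes. The same count was 581 for the 2 XC controls, 539 for the 2 XC mid liver libraries and 1674 for the 2 XC day 7 spleen libraries. Pairs across the series stood at 1101 and 1323 for controls, 2804 and 3308 for mid liver and 2692 for late liver. Leaving out either early library alone gave similar numbers of calls, 1259 and 1319 up. The verb "called" is used below for genes that passed in the fit without early libraries. That fit was an alternative to the main fit of 11 libraries, in which no called gene passed. An adjusted p not marked as without the early libraries is that of the 11-library fit by edgeR, over all 14600 genes.

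Both late libraries lay above the undivided library in 39.1% of the tested genes and below it in 39.9%, and the median log2 fold change of all tested genes was 0.01. The undivided library was close to the leukemia-free controls. It differed by over 1 log2 unit of CPM + 1 from the day 18 control in 114 genes and from the day 0 controls in 552 and 1258, against 2870 from the day 16 late library and 5721 from the day 18 late library. Between undivided and control, edgeR called 0 genes in each direction (smallest adjusted p = 1), with 22 genes (0.151%) higher and 160 (1.1%) lower at an unadjusted p under 0.05. DESeq2 with the same libraries also called 0 there.

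**Figure D1:**
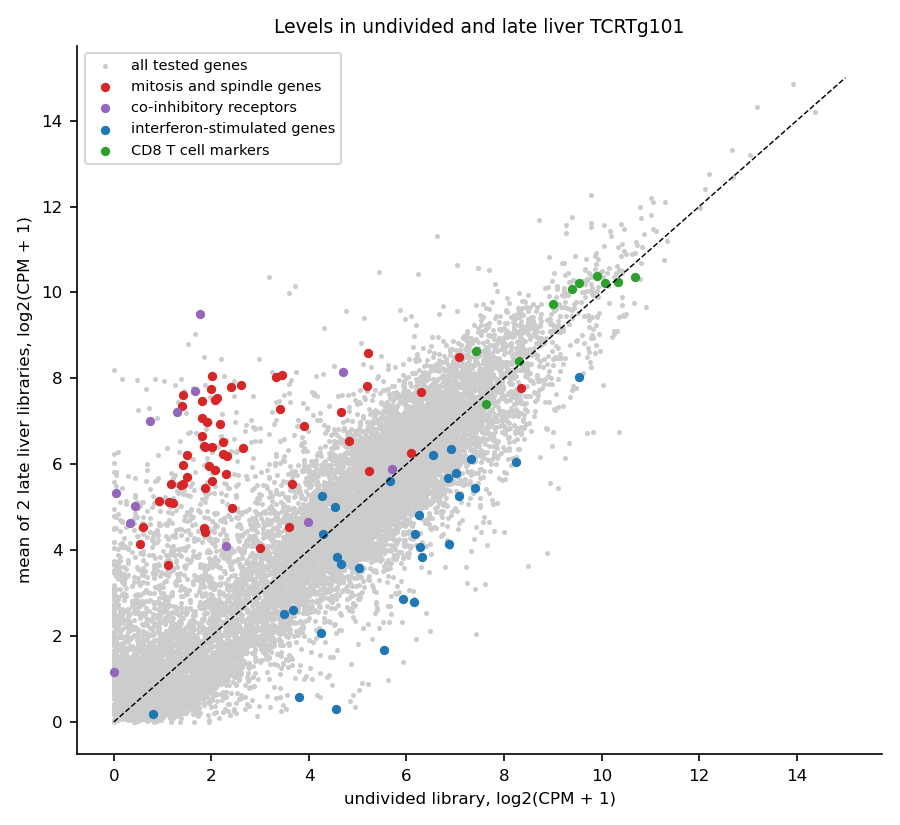
Each point is 1 of 14600 tested genes, with the undivided library on the x axis and the mean of the 2 late liver libraries on the y axis, both as log2(CPM + 1), and the dashed line marks equal levels. Co-inhibitory receptors and nearly all mitosis genes lie above the line (list medians 6.35 and 4.40 on the log2 fold change scale), interferon-stimulated genes mostly below it (median -1.26), and CD8 T cell markers near it (median 0.23).

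The identity of the cells was checked first. The 10 CD8 T cell markers, including Cd3e, Cd8a and Trac, were at or above 1 CPM in all libraries and summed to 10620, 7483 and 7579 CPM in late liver day 18, late liver day 16 and undivided cells. Trbv5, the V-beta segment of the transgenic receptor, stood at 12888, 7533 and 6490 CPM. The 34 other V-beta segments took 0.382%, 0.98% and 0.242% of V-beta CPM. Their highest member in both late libraries was Trbv13-2, at 22.6 and 48.1 CPM. The 3 CD4 T cell markers (Cd4, Foxp3 and Zbtb7b) summed to 11.3 and 11.5 CPM in the late libraries and to 0.773 CPM in the undivided library. Cd4 itself stayed below 1 CPM in all 3.

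Hepatocyte markers were higher in the late libraries than in the undivided one. The 15 markers summed to 530 and 130 CPM in the late libraries and to 2.19 CPM in the undivided library, where 9 of the 15 had 0 counts. High sums were not particular to late cells. Mid liver libraries summed to 313 (TG series), 32.6 and 5.01 CPM, and early liver libraries to 13.6 and 4.22 CPM. In the controls the sum ranged from 2.1 to 314 CPM, of which Trf, the transferrin gene, made up 313 CPM in the highest and 21.3 of 21.7 CPM in the next. The other 14 markers were each below 1 CPM in all 3 controls. Alb, encoding serum albumin, was at 126 and 23.6 CPM in late liver cells and had 0 counts in undivided cells. Macrophage, endothelial, B cell, erythroid, granulocyte and dendritic cell markers summed to 150 CPM or less per list in each of the 3 libraries. In the day 0 controls, erythroid markers summed to 5165 and 19791 CPM, macrophage markers to 1243 and 175 CPM, and dendritic cell markers to 1542 and 1370 CPM. The part of these other cells in the differences below was not tested. In bulk libraries, fewer cells that express a gene and less RNA of it per cell cannot be told apart.

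The genes with the largest differences were named by a rule, which took unadjusted p under 0.05 because no gene passed the adjusted threshold. It required a mean log2 CPM of at least 5 over the 11 libraries and both late libraries on one side of the undivided library, and 728 genes qualified as higher and 553 as lower. The 15 with the largest differences in each direction spanned log2 fold changes of 4.20 to 8.14 and of -5.91 to -2.99. Of the 15 higher genes, 14 were called without the early libraries and 15 by DESeq2, and the numbers were also 14 and 15 for the lower genes. The adjusted p in edgeR's 11-library fit ranged from 0.102 to 0.191.

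**Figure D2:**
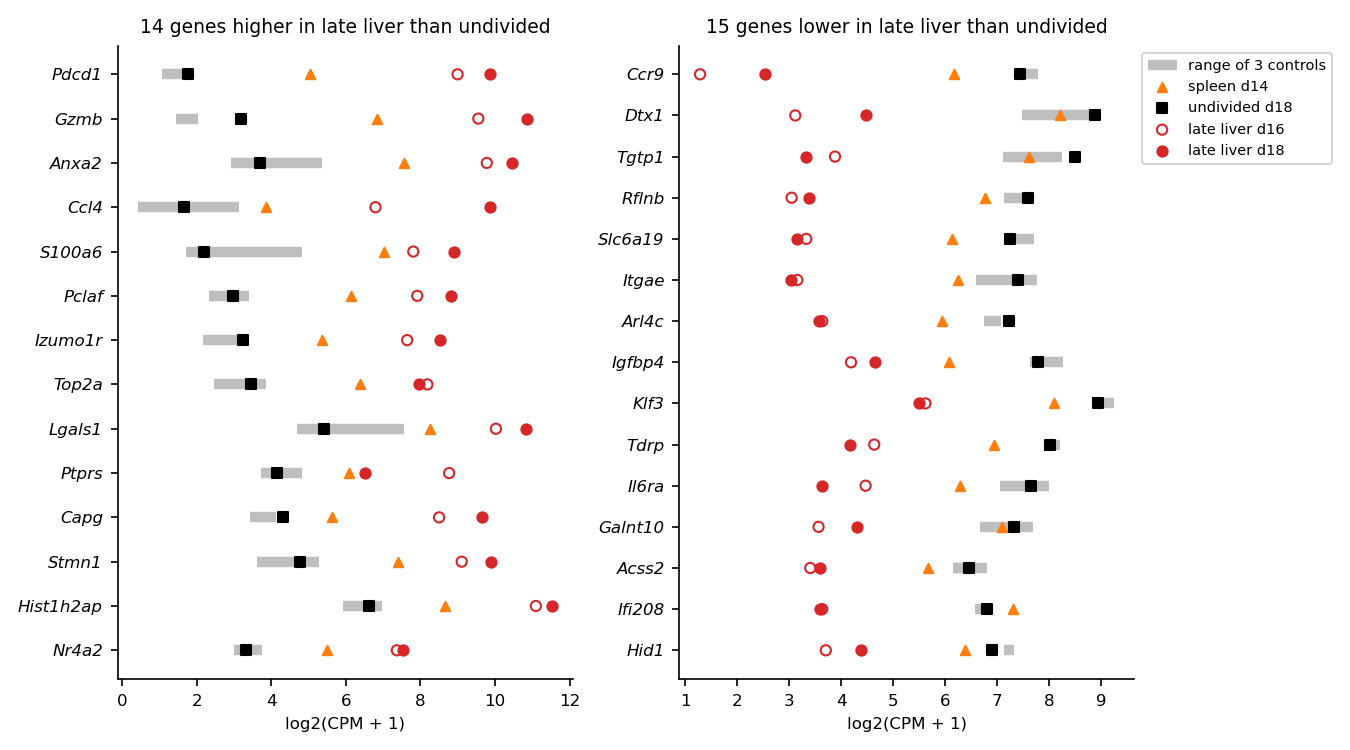
Of the 15 genes with the largest differences in each direction, 14 higher and 15 lower ones are shown as log2(CPM + 1), with filled and open red circles for late liver day 18 and day 16, black squares for the undivided library, orange triangles for the day 14 spleen library and grey bars for the range of 3 controls. For every gene shown both late libraries sit on one side of the undivided library, as for Pdcd1 (937 and 509 CPM against 2.38) and Ccr9 (4.81 and 1.43 CPM against 172).

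Among the genes that met this rule, the largest difference was that of Pdcd1, which encodes PD-1, the co-inhibitory receptor that recruits phosphatases to the T cell receptor complex. Pdcd1 (ENSMUSG00000026285.7) lies on the minus strand at chr1:94038305-94052553 in GRCm38. It was at 937, 509 and 2.38 CPM, with 1.1 to 2.39 CPM in the controls. Both late libraries were far above undivided cells and controls, with a log2 fold change of 8.14 ± 2.51 (adjusted p = 0.127 by edgeR, and 0.00297 without the early libraries).

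All 12 co-inhibitory receptor genes were tested, and all 12 were higher in both late libraries. Of these, 10 had an unadjusted p under 0.05 and 5 were called up, against 13.3% and 8.98% of all tested genes. The median log2 fold change was 6.35, against 0.01 over all tested genes, and 6.12 with Klrg1, which had 0 counts in undivided cells, set to its bound of at least 12.8-fold higher. Together they summed to 1949 and 1418 CPM in late liver cells, 102 CPM in undivided cells and 85.3 to 128 CPM in controls. Tigit, a receptor for CD155 with an inhibitory tail, stood at 209, 85.2 and 1.45 CPM (log2 fold change 5.91 ± 1.21, called). Lag3, which binds MHC class II, stood at 99.4, 157 and 0.677 CPM (7.59 ± 2.36, called). Cd160 stood at 387, 181 and 25 CPM (2.97 ± 1.16, called). Its level in undivided cells was within the range of the controls, 19.7 to 27.8 CPM.

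Havcr2, which encodes TIM-3, had 38.0 and 40.9 CPM in the late libraries and 1 count in the undivided library. The ratio of the mean late level to the undivided level was 1225 with an exact Poisson 95% interval of 220 to 48456, which covers the counting error of that 1 count only. In the day 0 controls Havcr2 was at 6.47 and 12.4 CPM and in the day 18 control at 0.319 CPM. Ctla4, which competes with CD28 for B7 ligands, stood at 129, 284 and 2.16 CPM, with 28.0 and 13.4 CPM in the day 0 controls and 1.79 CPM in the day 18 control. Both genes were thus higher in the controls whose macrophage and dendritic cell markers were high. Ctla4 and Havcr2 were not called without the early libraries (adjusted p = 0.104 and 0.119). Btla, the receptor for HVEM, was the member with the smallest difference at 56.3, 61.0 and 51.0 CPM (0.33 ± 0.45, adjusted p = 0.652). On the length-normalized TPM scale, Pdcd1 was the most abundant of the 12 in both late libraries (259 and 243 TPM), whereas Cd160 led in undivided cells (22.1 TPM, with Pdcd1 at 1.31 TPM).

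Transcription factors linked to exhaustion and anergy were also higher. All 20 listed factors were higher in both late libraries, and the median log2 fold change was 2.01. An unadjusted p under 0.05 was reached by 12 and 10 were called up, against 13.3% and 8.98% of all tested genes. Tox, a regulator of the exhausted state, stood at 136, 266 and 85.7 CPM (1.79 ± 0.39, adjusted p = 0.102, called). Nfatc1, a calcium-regulated factor that drives PD-1 expression, stood at 445, 1053 and 267 CPM (2.02 ± 0.47, called). The late values of both exceeded the highest control, 77.9 CPM for Tox and 298 CPM for Nfatc1. Other members were near absent in undivided cells. Bhlhe40 stood at 183, 707 and 1.87 CPM (8.05 ± 2.38, adjusted p = 0.122), and it missed the threshold without the early libraries (adjusted p = 0.0561). Tox2 stood at 12.4, 19.8 and 0.161 CPM (6.89 ± 2.49, called).

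The orphan nuclear receptor Nr4a2, induced by receptor signals, stood at 183, 164 and 8.99 CPM (4.20 ± 1.51, called). Its relatives differed less. Nr4a1 stood at 187, 122 and 50.9 CPM (1.44 ± 1.52, adjusted p = 0.558) and Nr4a3 at 50.7, 27.6 and 9.05 CPM (2.26 ± 1.53, adjusted p = 0.366). Tbx21, the type 1 effector factor T-bet, stood at 160, 100 and 8.96 CPM (3.93 ± 1.36, called). Eomes, its relative, stood at 96.3, 52.3 and 40.2 CPM (0.89 ± 1.24, adjusted p = 0.658), and at 152 CPM in the day 14 spleen library. The early growth response factors Egr1, Egr2 and Egr3 were higher in both late libraries with unadjusted p from 0.131 to 0.473.

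Attenuators of receptor signals formed a mixed group. Of 23 tested, 12 were higher and 8 lower in both late libraries, and the median was 0.39. An unadjusted p under 0.05 was reached by 10 (all higher) and 9 were called up, against 13.3% and 8.98% of all tested genes. Rnf128, which encodes the E3 ligase GRAIL described in anergic T cells, stood at 5.71, 15 and 0.548 CPM (4.57 ± 0.71, adjusted p = 0.102, called). Ubash3b, a phosphatase that acts on receptor kinases, stood at 244, 287 and 41.6 CPM (2.81 ± 0.53, called). Dusp4, a MAP kinase phosphatase, stood at 48.6, 135 and 1.55 CPM (6.24 ± 1.87, called). Spry1, an inhibitor of RAS signals, stood at 93.1, 130 and 2.71 CPM (5.35 ± 2.05, called). Each of these was higher in late liver cells than in any control. Dgka, a diacylglycerol kinase also known from anergy, stood at 385, 445 and 849 CPM (-0.85 ± 0.46, adjusted p = 0.262), and Cblb, an E3 ligase, stood at 130, 426 and 165 CPM, with the late libraries on both sides of the undivided one.

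Effector cytokine and cytotoxic genes were higher as well. Of 17 tested, 14 were higher in both late libraries and 0 lower, and the median was 2.15. An unadjusted p under 0.05 was reached by 9, and 6 of 15 in that fit were called up. The shares over all tested genes were 13.3% and 8.98%. Gzmb, the granzyme B gene at chr14:56258838-56262260, stood at 1868, 749 and 8.06 CPM (6.77 ± 2.28, adjusted p = 0.14, called). Prf1, which encodes the pore-forming protein perforin, stood at 338, 216 and 67.9 CPM (1.82 ± 0.55, called). Ifng stood at 161, 90.8 and 0.644 CPM (6.97 ± 2.41, called). In undivided cells Gzmb was above its highest control (3.1 CPM), while Ifng was within the controls' range of 0.638 to 3.02 CPM.

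Some cytokine genes had no or almost no counts in undivided cells. Csf2, encoding GM-CSF, was at 9.16 and 10.9 CPM in late cells and at 0 counts in undivided cells, at least 104-fold higher against a floor of 3 counts in that library (0.0966 CPM). Il10 was at 1.9 and 2.93 CPM against 0 counts, at least 25-fold higher. Fasl, the ligand of the death receptor Fas, was at 63.3 and 46.7 CPM against 1 count, a ratio of 1706 (exact Poisson 95% interval 307 to 67465). The day 0 controls held Fasl at 2.1 and 1.77 CPM and the day 18 control at 0.191 CPM, all above the 0.0322 CPM of the undivided library. The cytokines Tnf and Lta were much closer in both groups. Tnf stood at 38.2, 21.1 and 15.6 CPM (0.50 ± 1.02, adjusted p = 0.772), and Lta at 87.1, 14.7 and 16.8 CPM with the late libraries on both sides. Il2 was at 19.1 CPM in the day 18 late library, but at 0.576 CPM in the day 16 one and 0.161 CPM in undivided cells.

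All 8 chemokine genes were higher in both late libraries, against 39.1% of all tested genes, and the median was 5.19. Of these, 2 had an unadjusted p under 0.05 and 3 were called up of 7 tested in that fit. The shares over all tested genes were 13.3% and 8.98%. They summed to 3443 and 675 CPM in late liver cells and 20.8 CPM in undivided cells. Ccl4, an inflammatory chemokine, stood at 934, 110 and 2.19 CPM (5.95 ± 2.53, called), and Ccl3 at 391, 108 and 0.387 CPM (8.07 ± 2.91, called). Xcl1, which attracts cross-presenting dendritic cells, stood at 1718, 309 and 11.1 CPM (5.55 ± 2.59, adjusted p = 0.221). The day 18 library was the higher of the late pair in each, so the size of the chemokine difference depended on the library.

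Receptors of the NK family followed. Of 10 tested (of 12 listed), 9 were higher in both late libraries, and the median was 4.66. An unadjusted p under 0.05 was reached by 4 and 5 were called up, against 13.3% and 8.98% of all tested genes. Klrk1, encoding NKG2D, stood at 212, 223 and 2.06 CPM (6.55 ± 2.15, called), and Klrc1, the inhibitory receptor NKG2A, at 128, 186 and 0.644 CPM (7.94 ± 2.61, called). Klrd1, encoding CD94, the partner of NKG2A, was high in all 3 libraries at 135, 110 and 175 CPM (-0.50 ± 0.35, adjusted p = 0.368). The subunits of the NKG2A receptor thus differed unequally.

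Costimulatory receptors were higher in most cases. Of 12 costimulatory genes, 9 were higher and 3 lower in both late libraries, and the median was 1.5. At an unadjusted p under 0.05, 4 were higher and 2 lower, against 13.3% and 12.6% of all tested genes. Called were 5 up and 0 down, against 8.98% and 6.38%. The counts of lower genes were near or under those shares. Tnfrsf4, encoding OX40, stood at 324, 183 and 1.61 CPM (6.61 ± 1.54, adjusted p = 0.102, called). Tnfrsf1b, encoding TNF receptor 2, stood at 253, 439 and 73.0 CPM (2.57 ± 0.46, adjusted p = 0.102, called). Tnfrsf18, encoding GITR, stood at 311, 220 and 77.5 CPM (1.42 ± 0.29, called). Tnfrsf25, encoding death receptor 3, went the other way at 6.11, 1.97 and 48.8 CPM (-3.64 ± 0.99, adjusted p = 0.11, and adjusted p = 0.0654 without the early libraries). Cd28 differed little, at 277, 219 and 165 CPM (0.32 ± 0.26, adjusted p = 0.436).

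Genes of antigen-experienced T cells were higher with 1 exception. Of 20 tested, 19 were higher in both late libraries, and the median was 2.21. An unadjusted p under 0.05 was reached by 12 and 8 were called up, against 13.3% and 8.98% of all tested genes. S100a6, a calcium-binding protein, stood at 480, 223 and 3.58 CPM (5.75 ± 1.69, called), Anxa2, an annexin, at 1401, 877 and 12.1 CPM (6.00 ± 1.90, called), and Il2ra, encoding CD25, at 74.1, 125 and 3.61 CPM (5.03 ± 1.94, called). Cd44, the adhesion receptor used to separate naive from experienced cells, stood at 109, 120 and 6.96 CPM (3.78 ± 1.70, adjusted p = 0.208, called). The undivided level of Cd44 lay within the 5.13 to 26.2 CPM of the controls. The exception was Ly6a, at 195, 52.3 and 148 CPM, with the late libraries on both sides.

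Genes of naive and stem-like T cells were mostly lower. Of 20 tested, 14 were lower and 3 higher in both late libraries, and the median was -0.92. At an unadjusted p under 0.05, 8 were lower and 1 higher, against 12.6% and 13.3% of all tested genes. Called were 6 down and 1 up, against 6.38% and 8.98%. The counts of higher genes were under those shares. Satb1, a chromatin organizer of naive T cells, stood at 69.4, 110 and 643 CPM (-2.58 ± 0.69, adjusted p = 0.108, called). Lef1, a factor of the TCF family, stood at 222, 215 and 711 CPM (-1.58 ± 0.58, called). Tcf7, which encodes TCF1 and marks stem-like cells, stood at 625, 787 and 1389 CPM (-0.71 ± 0.52, adjusted p = 0.395). Il7r, the receptor of a survival cytokine, stood at 32.9, 108 and 428 CPM (-2.24 ± 0.96, adjusted p = 0.192, and adjusted p = 0.111 without the early libraries). Slamf6, a receptor also used to mark stem-like exhausted cells, was the member called up, at 498, 538 and 220 CPM (1.24 ± 0.36, adjusted p = 0.111).

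Homing and tissue residence genes had no common direction. Of 24 tested, 10 were higher and 11 lower in both late libraries, 8 and 4 had an unadjusted p under 0.05, 5 were called up and 4 down of 22 tested in that fit, and the median was 0.04. Over all tested genes the shares were 13.3% and 12.6% at the unadjusted p, and 8.98% and 6.38% were called. Ccr9, the receptor that guides cells to the small intestine (chr9:123678439-123784330), stood at 4.81, 1.43 and 172 CPM (-5.91 ± 1.22, adjusted p = 0.102, called). Itgae, encoding the residence integrin CD103, stood at 7.22, 7.89 and 168 CPM (-4.01 ± 1.03, called). S1pr1, needed for exit from lymphoid organs, stood at 31.1, 108 and 604 CPM (-2.69 ± 0.81, called). All 3 were high in the controls too, at 173 to 218, 95.3 to 217 and 508 to 906 CPM.

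Ccr7, the receptor for entry into lymph nodes, differed by less than S1pr1, at 495, 547 and 990 CPM (-0.97 ± 0.51, adjusted p = 0.257). Cxcr3, a receptor for inflamed tissue, stood at 208, 53.0 and 6.06 CPM (3.33 ± 1.40, called). Ccr8, a chemokine receptor of skin-homing and regulatory T cells, had 34.9 and 71.1 CPM in the late libraries and 1 count in the undivided library, a ratio of 1644 (exact Poisson 95% interval 295 to 65021), and at most 0.0319 CPM in the controls. Cxcr6, a receptor of liver-resident T cells, did not separate the groups at 190, 120 and 145 CPM (0.33 ± 0.82, adjusted p = 0.815). Cd69 was lower in both late libraries (126, 229 and 261 CPM, adjusted p = 0.631).

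**Figure D3:**
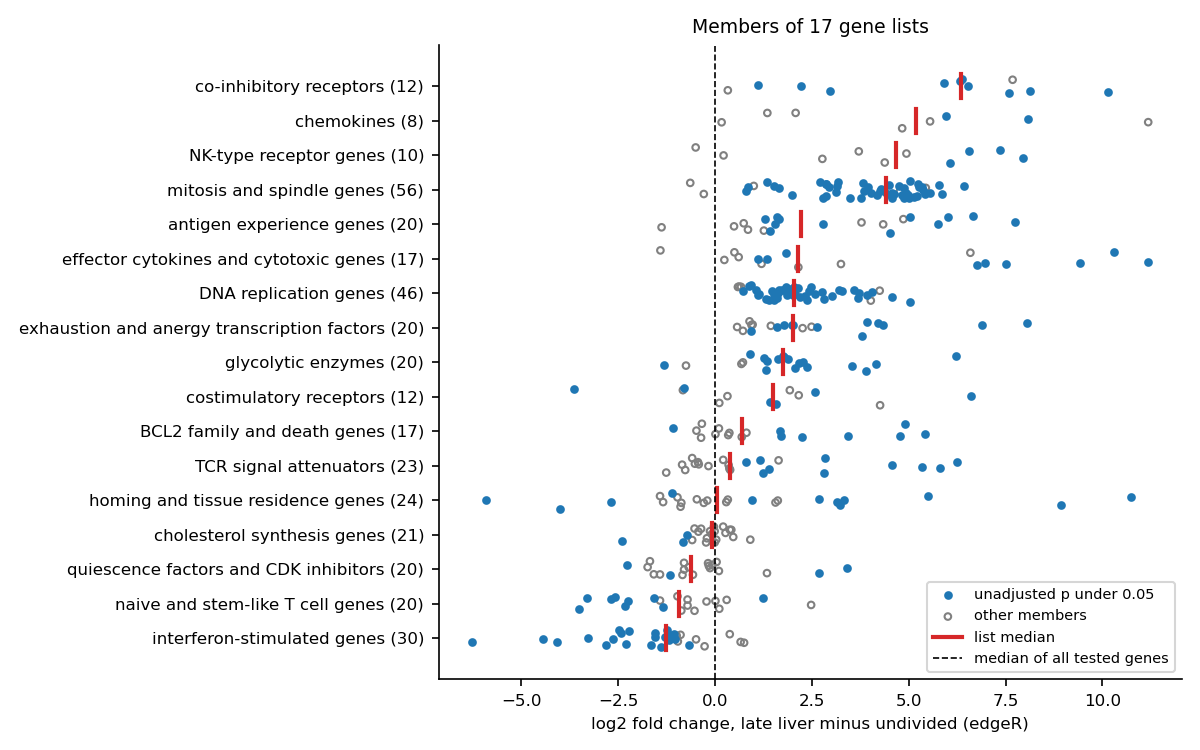
Log2 fold changes (late liver minus undivided, edgeR) of the members of 17 gene lists are plotted, with the number tested in brackets, filled points for unadjusted p under 0.05, a red bar for each list's median and a dashed line for the median of all tested genes (0.01). Medians run from -1.26 (interferon-stimulated genes) to 6.35 (co-inhibitory receptors).

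Cell cycle genes gave the most uniform difference. All 46 DNA replication genes were higher in both late libraries, 41 had an unadjusted p under 0.05, 35 were called up, and the median was 2.03. Their log2 fold changes ranged from 0.59 to 5.02. Of 56 mitosis and spindle genes, 54 were higher and 1 lower in both late libraries, 51 had an unadjusted p under 0.05 (all higher), 49 were called up, and the median was 4.40. Against these counts, 13.3% of all tested genes were higher at an unadjusted p under 0.05 and 8.98% were called up. The replication list summed to 9444 and 7169 CPM in late liver cells and to 1834 CPM in undivided cells, close to the controls' 1654 to 1730 CPM. The mitosis list summed to 6842, 5839 and 943 CPM, with 812 to 1093 CPM in the controls.

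Tyms, the enzyme that makes thymidylate, stood at 240, 115 and 9.47 CPM (3.58 ± 0.95, adjusted p = 0.108, called). Mcm5, a subunit of the replicative helicase, stood at 805, 405 and 72.4 CPM (2.75 ± 0.94, called). Pold1, the catalytic subunit of DNA polymerase delta, stood at 168, 224 and 62.6 CPM (1.83 ± 0.49, called). These replication genes were thus present in undivided cells at lower levels. Others were close to absent there, such as Mcm10 at 65.1, 71.4 and 2.06 CPM and Gins1 at 36.5, 20.8 and 1.84 CPM. Several mitotic genes were also close to absent in undivided cells, but not all, with Bub3 at 502, 224 and 134 CPM. Ccnb2, encoding cyclin B2, stood at 217, 171 and 1.68 CPM (6.42 ± 2.31, called), Plk1, a mitotic kinase, at 215, 110 and 1.64 CPM (5.86 ± 1.81, called), and Cdk1, the mitotic cyclin-dependent kinase, at 255, 102 and 3.19 CPM (4.88 ± 1.85, called). Incenp, of the chromosomal passenger complex, had the lowest unadjusted p of the list at 134, 163 and 24.3 CPM (2.71 ± 0.54, adjusted p = 0.102, called). Mki67, the gene of the Ki-67 antigen, stood at 155, 215 and 3.32 CPM (5.44 ± 2.39, adjusted p = 0.201, and adjusted p = 0.059 without the early libraries). The 2 members not higher in both late libraries were Smc4, a condensin subunit, at 201, 236 and 327 CPM (-0.64, adjusted p = 0.25), and Pttg1, encoding securin, at 99.8, 51.6 and 67.5 CPM.

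Promoter windows of these lists were read from RefSeq (GRCm38.p6, from 250 bases before to 50 after each start) because members differed in the same direction. Windows were matched by symbol for 48 of 56 mitosis genes and 37 of 46 replication genes, and a gene counted as holding a motif when any of its windows did, on either strand. The cell cycle homology region (CHR), searched as TTTGAA, was in 72.9% of the mitosis genes and in 20.2% of all 27025 genes. CCAAT, the NF-Y box, was in 68.8% of the mitosis genes, 56.8% of the replication genes and 41.1% of all genes. The E2F letters TTTGGCGC or TTTCCCGC were in 35.1% of the replication genes and 1.8% of all genes. No motif contains another, and a match is a description of the window and not a bound site. Shown are the 2 members of each list with the lowest unadjusted p that hold its first motif (capitals, TTTGAA or its complement for Cenpa and Ncapd2, the E2F letters for Pold1 and Dnmt1). The windows are chr5:30666636-30666935 (plus) for Cenpa, the centromeric histone, chr6:125191537-125191836 (minus) for Ncapd2, a condensin subunit, chr7:44548766-44549065 (minus) for Pold1, and chr9:20952574-20952873 (minus) for Dnmt1, the maintenance DNA methyltransferase, 1 of its 3 windows.
Cenpa: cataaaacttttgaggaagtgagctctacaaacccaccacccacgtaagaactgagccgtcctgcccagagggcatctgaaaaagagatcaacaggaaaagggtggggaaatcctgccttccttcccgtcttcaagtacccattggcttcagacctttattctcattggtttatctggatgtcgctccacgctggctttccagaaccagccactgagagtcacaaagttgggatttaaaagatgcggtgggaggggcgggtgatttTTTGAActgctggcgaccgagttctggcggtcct
Ncapd2: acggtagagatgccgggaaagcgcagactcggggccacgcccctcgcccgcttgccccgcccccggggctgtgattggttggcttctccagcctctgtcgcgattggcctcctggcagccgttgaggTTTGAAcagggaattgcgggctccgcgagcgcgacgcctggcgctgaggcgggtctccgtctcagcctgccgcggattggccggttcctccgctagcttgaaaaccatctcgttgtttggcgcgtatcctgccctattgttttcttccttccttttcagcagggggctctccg
Pold1: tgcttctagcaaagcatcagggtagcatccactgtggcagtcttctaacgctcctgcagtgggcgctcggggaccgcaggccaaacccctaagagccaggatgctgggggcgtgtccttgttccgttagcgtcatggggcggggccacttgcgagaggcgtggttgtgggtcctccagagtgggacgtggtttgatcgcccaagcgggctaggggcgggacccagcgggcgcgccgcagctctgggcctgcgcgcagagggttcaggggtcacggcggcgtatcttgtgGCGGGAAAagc
Dnmt1: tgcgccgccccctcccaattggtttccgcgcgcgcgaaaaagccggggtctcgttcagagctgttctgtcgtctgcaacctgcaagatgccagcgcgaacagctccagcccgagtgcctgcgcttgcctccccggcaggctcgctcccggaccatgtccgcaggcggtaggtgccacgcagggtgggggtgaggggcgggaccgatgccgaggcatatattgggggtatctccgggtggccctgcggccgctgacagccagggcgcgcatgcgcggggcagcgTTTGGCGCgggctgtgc
Cenpa stood at 487, 285 and 36.0 CPM (2.94 ± 0.64, adjusted p = 0.102, called), Ncapd2 at 170, 279 and 35.4 CPM (2.87 ± 0.69, called), and Dnmt1 at 256, 345 and 128 CPM (1.52 ± 0.46, called).

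Inhibitors of the cycle gave few calls. Of 20 tested quiescence factors and CDK inhibitors (of 22 listed), 13 were lower and 3 higher in both late libraries, 2 in each direction had an unadjusted p under 0.05, 1 was called in each direction, and the median was -0.62. These counts were no higher than the shares over all tested genes, 13.3% and 12.6% at the unadjusted p and 8.98% and 6.38% called. Pik3ip1, an inhibitor of PI3 kinase, was called down at 32.3, 46.7 and 206 CPM (-2.26 ± 0.77, adjusted p = 0.139). Cdkn2c, encoding the CDK4 and CDK6 inhibitor p18, was called up at 35.6, 31.9 and 2.67 CPM (3.41 ± 0.85, adjusted p = 0.102). Cdkn1b, encoding p27, stood at 20.4, 28.2 and 43.1 CPM (-0.80 ± 0.52, adjusted p = 0.342). Klf2, a quiescence factor that also drives S1pr1, stood at 230, 329 and 785 CPM (-1.42 ± 0.72, adjusted p = 0.246).

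**Figure D4:**
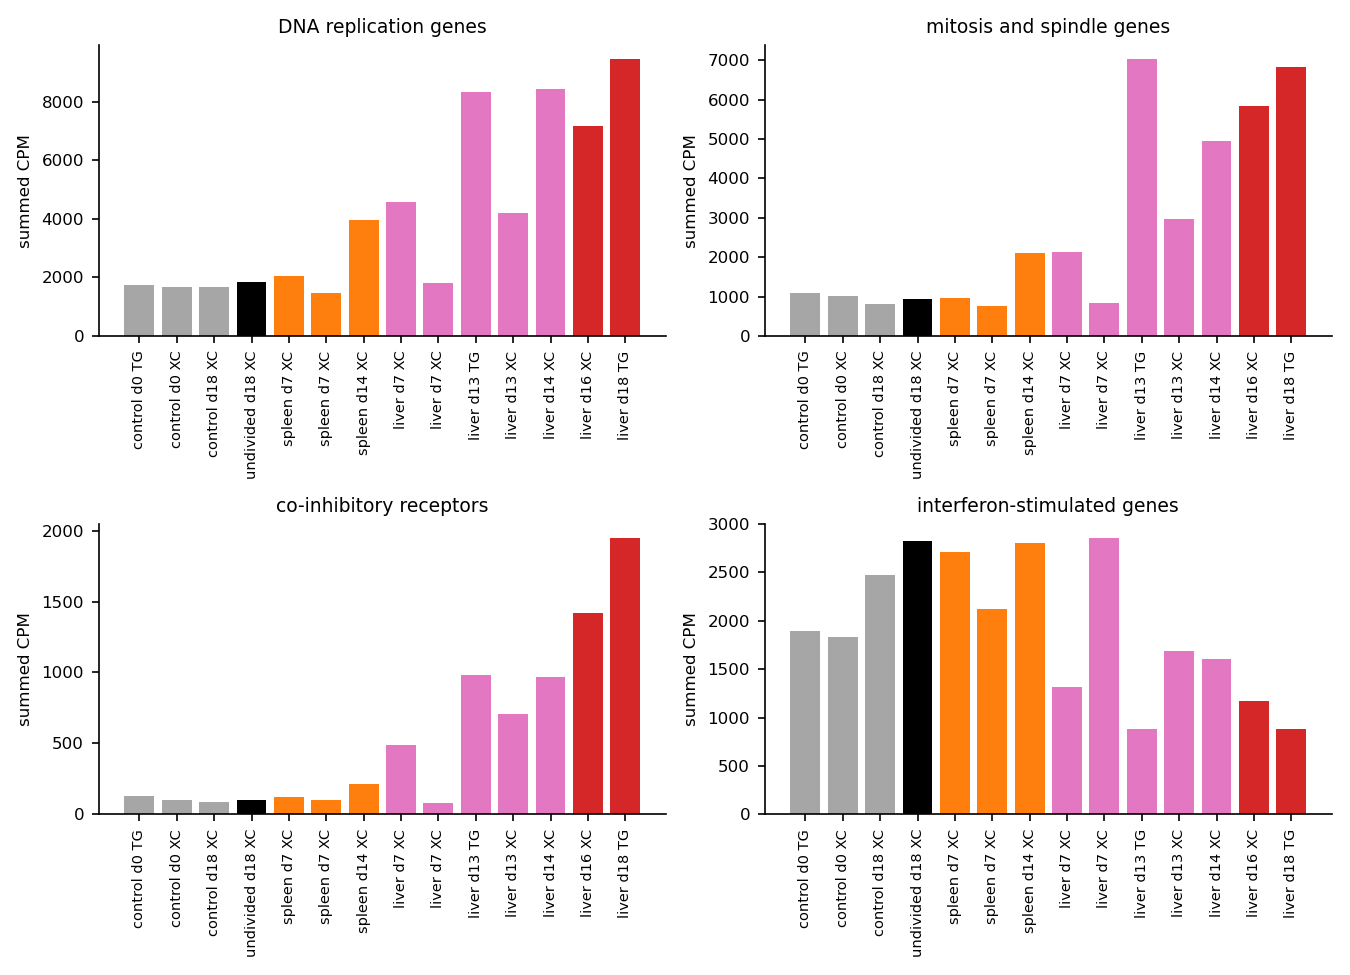
Bars give the summed CPM of 4 gene lists in each of 14 libraries (grey controls, black undivided, orange spleen of leukemia-bearing mice, pink early and mid liver, red late liver), labelled by tissue, day and series. The mitosis list stands at 943 CPM in undivided cells, 2117 CPM in the day 14 spleen and 5839 and 6842 CPM in late liver cells, whereas the interferon list is highest among these in undivided cells (2823 CPM).

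Glycolytic genes were mostly higher. Of 20 tested, 17 were higher and 2 lower in both late libraries, and the median was 1.76. At an unadjusted p under 0.05, 16 were higher and 1 lower, against 13.3% and 12.6% of all tested genes. Called were 15 up and 1 down, against 8.98% and 6.38%. Slc16a3, the lactate exporter MCT4, had the lowest unadjusted p of the lists except that of Rnf128, at 75.4, 89.5 and 1.13 CPM (6.23 ± 0.95, adjusted p = 0.102, called). Tpi1, triosephosphate isomerase, stood at 1680, 1080 and 74.1 CPM (3.90 ± 0.74, called), Gapdh at 4626, 2003 and 419 CPM (2.38 ± 0.64, called), and Ldha, lactate dehydrogenase A, at 6939, 2882 and 876 CPM (1.88 ± 0.56, called). Pdk1, a kinase that inhibits pyruvate dehydrogenase, was the member called down, at 50.5, 89.9 and 230 CPM (-1.33 ± 0.53, adjusted p = 0.167). The list as a whole took 27623, 15180 and 4675 CPM, and Gapdh, often used as a reference gene, was higher in both late libraries than in every control.

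Cholesterol synthesis genes had no common direction. Of 21 tested, 6 were higher and 8 lower in both late libraries, 0 and 3 had an unadjusted p under 0.05 with edgeR, 0 were called up and 1 down (DESeq2 also called 0 and 1), and the median was -0.08. The lower counts were near the shares over all tested genes, 12.6% at the unadjusted p and 6.38% called. Summed CPM of the list was 1019, 911 and 1071.

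Genes of the BCL2 family and of cell death that differed included both promoters and inhibitors of death. Of 17 tested, 10 were higher and 4 lower in both late libraries, and the median was 0.69. At an unadjusted p under 0.05, 7 were higher and 1 lower, against 13.3% and 12.6% of all tested genes. Called were 6 up and 0 down, against 8.98% and 6.38%. Bcl2l11, encoding the death-promoting protein BIM, stood at 155, 192 and 43.5 CPM (2.24 ± 0.45, adjusted p = 0.102, called). Of the protective members, Bcl2a1b stood at 255, 155 and 15.8 CPM (3.42 ± 1.39, called) and Bcl2a1d at 180, 104 and 3.67 CPM (4.90 ± 1.70, called). The Bcl2a1 genes are near-identical copies, so their counts are uncertain one by one. Bcl2 itself did not separate the groups at 109, 203 and 178 CPM.

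Interferon-stimulated genes were lower in late liver cells. Of 30 tested, 25 were lower and 1 higher in both late libraries, 21 had an unadjusted p under 0.05 (all lower), 18 were called down, and the median was -1.26. Over all tested genes 12.6% were lower at an unadjusted p under 0.05 and 6.38% were called down. DESeq2 called 10 of the 30 down. The list summed to 877, 1173 and 2823 CPM. Undivided cells exceeded all 3 controls in 18 of the 30 genes and were below all 3 in 1, against 20.9% above and 18.3% below over all tested genes. None of the 30 differed between undivided and control at an unadjusted p under 0.05 with edgeR. The median log2 difference of undivided minus control was 0.19, so most of the distance lay between late cells and both undivided cells and controls. Low sums were not particular to late cells. Mid liver libraries summed to 882, 1687 and 1602 CPM, and early liver libraries to 1313 and 2858 CPM.

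Oas2, a sensor of double-stranded RNA at chr5:120730333-120749853, stood at 0.23, 0.247 and 22.6 CPM (-6.26 ± 1.32, adjusted p = 0.102, called), with 16.0 to 21.5 CPM in the controls. Oasl2 stood at 1.59, 2.8 and 45.5 CPM (-4.09 ± 0.93, called), Ifit1 at 3.6, 9.02 and 60.2 CPM (-2.82 ± 0.76, called), and Ifit3 at 4.31, 7.46 and 70.7 CPM (-3.27 ± 0.76, called). Ifit3 and Ifit3b are near-identical copies and share reads. Usp18, which removes ISG15 from proteins and limits interferon receptor signals, stood at 10.8, 15.7 and 78.4 CPM (-2.42 ± 0.62, called). Irf7, an interferon regulatory factor, stood at 46.6, 54.1 and 115 CPM (-1.29 ± 0.46, called). In all of these both late libraries were below every control. Isg20, an exonuclease, was the member higher in both late libraries, at 48.8, 25.7 and 18.2 CPM (0.66 ± 0.38, adjusted p = 0.293).

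**Figure D5:**
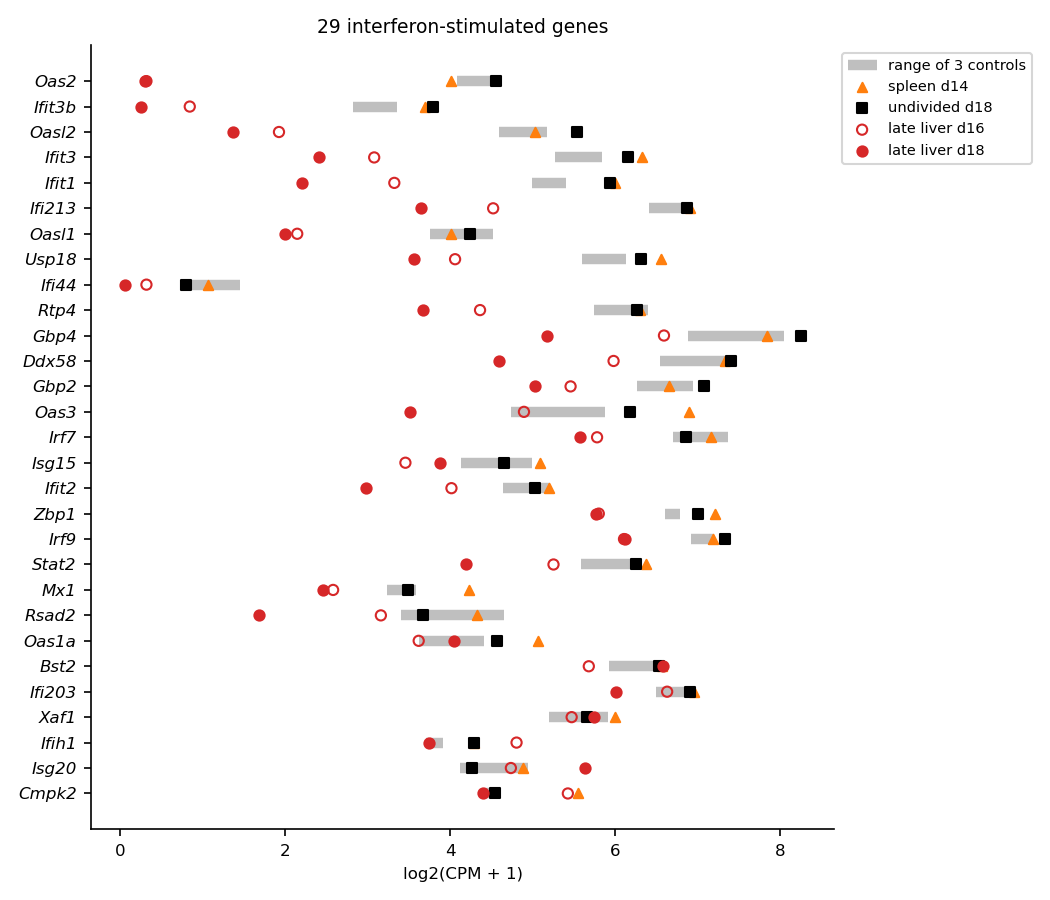
Of the 30 interferon-stimulated genes, 29 are shown as log2(CPM + 1) with the symbols of the plot of the named genes, ordered by log2 fold change. The late liver circles lie left of the black undivided squares for 24 genes, most widely for Oas2 (0.23 and 0.247 CPM against 22.6), and the orange day 14 spleen triangles lie above the undivided level for 21 genes. Over all tested genes the day 14 spleen library was above the undivided one in 7725 of 14600.

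The interferon-stimulated response element, searched on both strands as GAAA, any 2 bases and GAAA, was in the promoter window of 60.9% of the 23 list members matched and in 4.0% of all genes. The 2 members with the lowest unadjusted p that hold it are shown with the match in capitals, leaving out Ifit3b, whose window repeats that of Ifit3. Ifit3 (chr19:34583279-34583578, plus strand) has 2 matches, and Ifi213 (chr1:173599223-173599522, minus strand), of the interferon-inducible PYHIN family, has 1.
Ifit3: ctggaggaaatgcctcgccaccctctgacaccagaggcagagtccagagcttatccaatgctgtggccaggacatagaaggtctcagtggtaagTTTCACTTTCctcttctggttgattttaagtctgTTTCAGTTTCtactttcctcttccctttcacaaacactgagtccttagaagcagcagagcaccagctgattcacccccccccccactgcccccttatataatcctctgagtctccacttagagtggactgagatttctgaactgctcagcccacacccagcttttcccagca
Ifi213: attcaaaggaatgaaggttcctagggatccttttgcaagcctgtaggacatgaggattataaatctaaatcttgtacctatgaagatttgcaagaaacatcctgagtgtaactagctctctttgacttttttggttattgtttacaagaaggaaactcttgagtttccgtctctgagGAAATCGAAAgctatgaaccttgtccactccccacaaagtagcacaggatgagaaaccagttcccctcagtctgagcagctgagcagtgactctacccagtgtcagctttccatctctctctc
Ifi213 stood at 11.5, 22.0 and 116 CPM (-2.64 ± 0.65, adjusted p = 0.103, called).

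Of the 30 genes named by the rule, 17 belonged to none of the lists. Among those higher in late cells, Izumo1r, encoding folate receptor 4, stood at 370, 199 and 8.41 CPM (4.86 ± 1.62, called), Capg, an actin-capping protein, at 795, 361 and 18.9 CPM (4.42 ± 1.13, adjusted p = 0.106, called), and the histone gene Hist1h2ap at 2939, 2184 and 97.3 CPM (4.25 ± 0.99, adjusted p = 0.102, called). Histone genes of this cluster are near-identical, so the last value is uncertain. Lgals1, encoding galectin-1, is a named gene already counted in the list of antigen-experienced T cells. It stood at 1815, 1039 and 42.0 CPM (4.52 ± 1.5) and was the higher gene not called without the early libraries (adjusted p = 0.0736). Ptprs, a receptor phosphatase, stood at 91.1, 435 and 16.8 CPM (4.42 ± 1.29, called), with the late libraries far apart.

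Among the genes lower in late cells, Dtx1, the E3 ligase Deltex1 known as a target of NFAT and Notch, stood at 21.1, 7.65 and 470 CPM (-4.87 ± 1.06, adjusted p = 0.102, called). Its direction was opposite to that of Rnf128, also linked to anergy. Arl4c, a small GTPase, had the smallest unadjusted p of the 15 at 10.9, 11.4 and 149 CPM (-3.86 ± 0.63, adjusted p = 0.102, called), and the late libraries were almost equal. Klf3, a repressor of the Kruppel-like family, stood at 44.1, 48.1 and 488 CPM (-3.41 ± 0.73, called), and Slc6a19, an amino acid transporter, at 7.82, 9.02 and 150 CPM (-4.03 ± 1.06, called). Tgtp1, an interferon-gamma-induced GTPase, stood at 8.93, 13.7 and 360 CPM (-4.63 ± 0.96, called). Igfbp4, an IGF-binding protein expressed by naive T cells, was already counted in the list of naive and stem-like genes. It stood at 24.2, 17.2 and 220 CPM (-3.50 ± 1.17) and was the lower gene not called without the early libraries (adjusted p = 0.0639).

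Within the XC series alone the comparison was 1 late library (day 16) with 1 undivided library. There edgeR called 0 of 13295 genes in each direction, with 1123 higher and 938 lower at an unadjusted p under 0.05, so the comparison inside 1 series could not be called at the adjusted threshold. The late pair itself was 2692 genes apart by over 1 log2 unit of CPM + 1. For 3060 of the 14600 genes the late libraries lay on both sides of the undivided library, and these genes carry no common direction.

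Undivided cells were also set against the controls by the rule for named genes, with 5 places in each direction. No gene qualified as higher, and 5 qualified as lower at an unadjusted p under 0.05. Cpt1a, which carries fatty acids into mitochondria, stood at 50.4 CPM in undivided cells and 110, 110 and 81.0 CPM in the controls (undivided minus control -1.18 ± 0.43, adjusted p = 1). In late cells it stood at 61.6 and 147 CPM. The other 4 were Etv6, mt-Atp6, Ipo13 and Urgcp. The mitochondrial gene mt-Atp6 followed the series as well, at 1976 CPM in the TG control and 1528 CPM in the TG late library against 107 to 172 CPM in the XC controls, the XC late library and undivided cells. This comparison and the one with late liver share the undivided library, so the same departure of that library enters both.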

How the data were processed

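RNA from TCRTg101 sorted by flow cytometry was sequenced by the authors as low-input libraries. The submitters' processing notes name bcl2fastq, kallisto and the builds mm10 and GRCm38, and versions are not given in the sources used here. The authors deposited kallisto's estimated counts (expected counts, not whole numbers) and TPM per transcript. The deposited TPM were used for levels between genes and for an alternative. Here 116622 of 118783 transcripts (98.18%) were matched to GENCODE vM21, estimated counts were summed per gene and over the runs of a library, and rounded. Kallisto splits reads among similar transcripts, so near-identical genes are uncertain. No molecular identifiers are described, so counting intervals cover counting error only.

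A gene entered the test when 6 of the 11 libraries held 10 or more counts of it. It was done with edgeR 4.0.16 in R 4.3.3 (quasi-likelihood, robust, two-sided, TMM, Benjamini-Hochberg, threshold 0.05), with group and series as terms. DESeq2 1.42.0, the authors' tool, was an alternative, as were other filters, scalings, libraries and runs. Python 3.11.15 with pandas 2.3.3 and matplotlib 3.10.9 made tables and plots. TMM factors were 0.754, 0.984 and 1.08 for late day 18, late day 16 and undivided. The oligo-dT control library was not used, and the 3 spleen libraries of leukemia-bearing mice entered 1 alternative and the values named as spleen.

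Named genes were the 15 largest differences in each direction with adjusted p under 0.05, mean log2 CPM of at least 5 and both late libraries on one side of the undivided library, or unadjusted p under 0.05 where too few passed, plus list members. For undivided against control, 5 in each direction were taken under the same conditions. The comparison, the 17 gene lists and the 9 marker lists were chosen with earlier results of these data known. Where nothing says that libraries came from separate mice, p-values measure the spread between these libraries, which may be technical. Some members counted in the lists are not reported here by name.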

Additional observations from a re-analysis of the deposited data

Results flagged for a closer look

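The spleen library of a leukemia-bearing mouse at day 14 (1 library, XC series) was outside the comparison, and its sums over 3 gene lists stood above those of all 3 controls. Its replication genes summed to 3946 CPM, against 1654 to 1730 CPM in controls and 1834 CPM in undivided cells. Its mitosis genes summed to 2117 CPM, against 812 to 1093 CPM in controls and 943 CPM in undivided cells. Its co-inhibitory receptors summed to 217 CPM, against 85.3 to 128 CPM in controls and 102 CPM in undivided cells. All 3 sums were below those of both late liver libraries. The label of this library does not say that it was sorted on CTV, and with 1 library the difference was not tested.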

How the results depend on the processing

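With edgeR's 11-library fit 0 genes were called higher and 0 lower in late than in undivided cells. The numbers were 1214 and 677 with DESeq2, 1247 and 886 without the early libraries, 522 and 246 with the libraries of the compared groups only (12629 genes), 1593 and 917 with a filter of 1 count in 1 library (29482 genes), and 1938 and 1180 with DESeq2 without the early libraries, which was added after seeing the data. They were 0 and 0 with RLE factors, no series term, at least 10 counts in 2 libraries, the XC series alone, the 3 spleen libraries added, first runs, and counts scaled from TPM. Leaving out 1 library gave 0 to 1319 higher and 0 to 881 lower, and the calls came only when early replicate 1 (1259 and 881) or early replicate 2 (1319 and 878) was left out. The cause was not tested. For undivided against control the numbers were 48 and 280 with the filter of 1 count, 2 and 0 with DESeq2 without the early libraries, and 0 and 0 in all other settings, including each replicate left out.

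Of the 92 genes whose fold change is printed, Cxcr6 turned direction, to -0.25 in the XC series alone and -0.27 without late replicate 1. The same gene stood at 1.19 without late replicate 2. No other gene of the 92 turned under any setting. No paired analysis was possible because the undivided group has 1 library and replicate numbers follow accession order. The undivided library could not be left out, and its own spread is unknown.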

Other observations

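The day 14 spleen library held a level between the undivided library and the late liver range for all 15 named genes higher in late cells and for 14 of the 15 lower ones. Over all tested genes this held for 9875 of 14600. The named genes were chosen for large differences, so the range to fall within was wide. Pdcd1 was at 32.1 CPM there and Gzmb at 114 CPM, Ccr9 at 71.1 CPM and Itgae at 75.1 CPM. The interferon-stimulated genes differed from this order, since the spleen library exceeded the undivided library in 21 of 30 genes, with Ifit3 at 79.5 CPM and Usp18 at 93.6 CPM. Over all tested genes the spleen library exceeded the undivided one in 7725 of 14600. The 3 spleen libraries of leukemia-bearing mice had interferon sums of 2711 and 2125 CPM (day 7) and 2801 CPM (day 14), beside 2823 CPM in the undivided spleen library and 877 to 1687 CPM in the mid and late liver libraries. One early liver library was as high as the spleen (2858 CPM) and the other was at 1313 CPM.

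Among the genes with late libraries on both sides of the undivided library and a mean log2 CPM of at least 5, some of those farthest apart are given, chosen after their values were seen. Tnfaip3, the NF-kappaB inhibitor A20, was at 37.5 CPM at day 18 and 470 CPM at day 16, with 235 CPM in undivided cells. Sik1, a kinase induced by cAMP, was at 12.2, 133 and 56.5 CPM, and Myh9, non-muscle myosin, at 264, 1394 and 1369 CPM. In the opposite order, Lta, a TNF family cytokine, was farthest apart at 87.1, 14.7 and 16.8 CPM, and Id3, an inhibitor of E proteins, was at 464, 103 and 152 CPM. For Myh9 the TG control (337 CPM) was also lower than the XC controls (1452 and 1246 CPM), so the late pair differed there in the same direction as the series.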
